A study of Mus musculus with 4 samples.

Results

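The genes described are 9 that mark type 1 conventional dendritic cells (cDC1) or act in their development: the transcription factor genes Irf8, Batf3, Id2 and Nfil3, the surface molecule genes Cadm1 and Cd24a, and Wdfy4, Naaa and Snx22. They were taken by symbol, 9 rows of 55450 gene rows in each count table, and each symbol occurred once. The libraries hold RNA from CD11c+ cells of mesenteric lymph nodes of wild-type C57BL/6J mice, with 2 nodes pooled per sample, enriched with magnetic beads. Each pool of cells was split, and 1 share was cultured for 6 h with water as the control and the other with 10 µM Ffar2 agonist. FFAR2 is a receptor for short-chain fatty acids, and the series title links it to interleukin-27 made by dendritic cells. There were 2 control and 2 agonist libraries from 2 pools, called pool 2 and pool 3 after the numbers in the titles. The labels give neither the age nor the sex of the mice, nor the agonist's chemical name.

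The cDC1 is the dendritic cell class specialised in taking up dead cells and presenting their antigens to CD8 T cells, and in the mesenteric node part of the class arrives with lymph from the gut. Its development rests on IRF8, with BATF3 as the partner that keeps Irf8 active, while ID2 restrains the E proteins that drive plasmacytoid dendritic cells and NFIL3 acts upstream of ID2. None of the 9 genes belongs to the cDC1 alone. Irf8 is also read in plasmacytoid dendritic cells and B cells, Id2 and Nfil3 in natural killer and innate lymphoid cells, and Cd24a in B cells. The bead-enriched libraries are bulk samples, so fewer cells of a type and less RNA per cell cannot be told apart.

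Reads assigned to genes numbered 43238375 to 59902172 per library. The defining cDC1 markers were present: Xcr1, a chemokine receptor of the class, was read at 31.2 CPM (its count as a share of the library's reads, scaled by the trimmed mean of M-values) in control 2, 54.0 in control 3, 28.2 in agonist 2 and 94.9 in agonist 3, and Clec9a, its receptor for dead cells, at 20.1, 35.0, 16.8 and 31.5 CPM in the same order. All 8 markers on the cDC1 list had reads, and their summed level was 213 to 350 CPM, of which Ppt1, a lysosomal thioesterase found well beyond the class, gave 128 to 156 CPM. Markers of other cells were present too. Summed levels were 11865 to 19066 CPM for mature migratory dendritic cells, mostly from Ccr7, 3070 to 5596 CPM for monocytes and macrophages, 428 to 991 CPM for plasmacytoid dendritic cells, 366 to 804 CPM for B cells, 175 to 603 CPM for T cells, 941 to 1244 CPM for natural killer and innate lymphoid cells and 169 to 263 CPM for cDC2. Of these 7 lists none had a marker at 0. The label cDC1 therefore describes the genes and not the purity of the cells.

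Irf8, Naaa and Wdfy4 are shown by the 250 bases before their RefSeq start sites (GRCm38.p6), because their levels behaved differently in the 4 libraries: Irf8 varied most, Naaa was the one gene whose groups did not overlap, and Wdfy4 varied little. RefSeq held such sequences for 7 of the 9 genes, and those of Batf3, Id2 and Nfil3 are not printed because over 30 of their bases lie in annotated exons. The sequences run 5′ to 3′ on the gene's strand. They lie at chr8:120736108-120736357 (plus strand, Irf8), chr5:92278182-92278431 (minus strand, Naaa) and chr14:33185067-33185316 (minus strand, Wdfy4). Irf8 has a second annotated start, and Wdfy4 starts within the longer gene model of GENCODE.
Irf8: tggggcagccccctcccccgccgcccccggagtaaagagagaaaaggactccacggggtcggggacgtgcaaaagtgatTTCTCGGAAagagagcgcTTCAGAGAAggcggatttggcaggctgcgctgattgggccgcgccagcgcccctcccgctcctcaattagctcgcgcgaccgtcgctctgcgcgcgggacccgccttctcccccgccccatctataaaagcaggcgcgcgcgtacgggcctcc
Naaa: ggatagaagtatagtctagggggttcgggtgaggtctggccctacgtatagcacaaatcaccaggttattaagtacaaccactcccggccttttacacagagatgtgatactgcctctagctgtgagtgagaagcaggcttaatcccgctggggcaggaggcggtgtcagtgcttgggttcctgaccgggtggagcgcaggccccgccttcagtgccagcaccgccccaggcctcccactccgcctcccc
Wdfy4: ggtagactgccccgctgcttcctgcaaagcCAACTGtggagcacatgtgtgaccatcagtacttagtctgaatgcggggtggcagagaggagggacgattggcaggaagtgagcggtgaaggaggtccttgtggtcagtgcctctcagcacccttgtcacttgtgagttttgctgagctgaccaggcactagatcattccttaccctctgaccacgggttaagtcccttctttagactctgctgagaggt

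Capitals mark matches, on either strand, to 5 motifs. These are TGANTCA (the AP-1 site bound by BATF3 with JUN proteins), a pair of GAAA cores 2 bases apart (IRF), CAGNTG (E proteins, the targets of ID2), TTANGTAA (NFIL3) and TTCNNNGAA (GAS, bound by STAT factors). The last was added after the Irf8 sequence was seen. The capitals in Irf8 are 2 GAS matches, beginning 171 and 153 bases before the start site. In Wdfy4 they are 1 E protein match, beginning 220 bases before the start site, and Naaa has none. Such matches occurred in 7.02% (GAS) and 44.8% (E protein) of all 32851 windows of this length, against 6.75% for AP-1, 2.98% for IRF and 2.06% for NFIL3. In the windows not printed, Batf3 had 1 GAS match, and Id2, Nfil3 and the second Irf8 start had 1 E protein match each. No AP-1, IRF or NFIL3 match lay in the windows of any of the 7 genes. The matches share no bases with each other.

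Per length, the 9 genes spanned a wide range of levels. Id2 stood far above the others, at 703 to 925 RPKM (CPM per 1000 bases of merged exons) in the 4 libraries, rank 29 of 18297 tested genes. Cd24a followed at 36.3 to 68.3 RPKM and Irf8 at 17.9 to 71.6 RPKM, ranges that overlapped. Wdfy4 lay below both at 8.28 to 12.3 RPKM and overlapped Batf3, at 5.13 to 10.4 RPKM. The range of Nfil3 was 3.56 to 4.71 RPKM, clear of Batf3 and overlapping Snx22 at 1.80 to 4.60 RPKM. Naaa at 1.52 to 3.80 RPKM and Cadm1 at 0.933 to 2.51 RPKM overlapped Snx22 and each other. The order depends on the length used: with the longest transcript in place of all exons, Irf8 had a mean of 84.7 RPKM and Cd24a one of 71.9 RPKM, Batf3 12.3 and Wdfy4 10.3, so both pairs changed places, and Cadm1 (4.16) and Naaa (4.92) stood above Nfil3 (4.08) and Snx22 (3.78). Snx22 shares 825 exon bases with Ppib, a peptidyl-prolyl isomerase gene on the opposite strand. If reads in the shared bases were dropped, as in counting without regard to strand, the same Snx22 count over the unshared bases gives a mean of 4.65 RPKM. The library kit does not mark strand. If counting was by strand, that figure does not apply, and part of the Snx22 reads may come from Ppib, which had 30.9 to 41.8 CPM. With such a kit, counting by strand would leave most reads from the opposite strand of a gene without a feature. Reads with no feature made up 15.96% to 19.99% per library. The setting is not stated in the sources used here and was not tested.

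**Figure D1:**
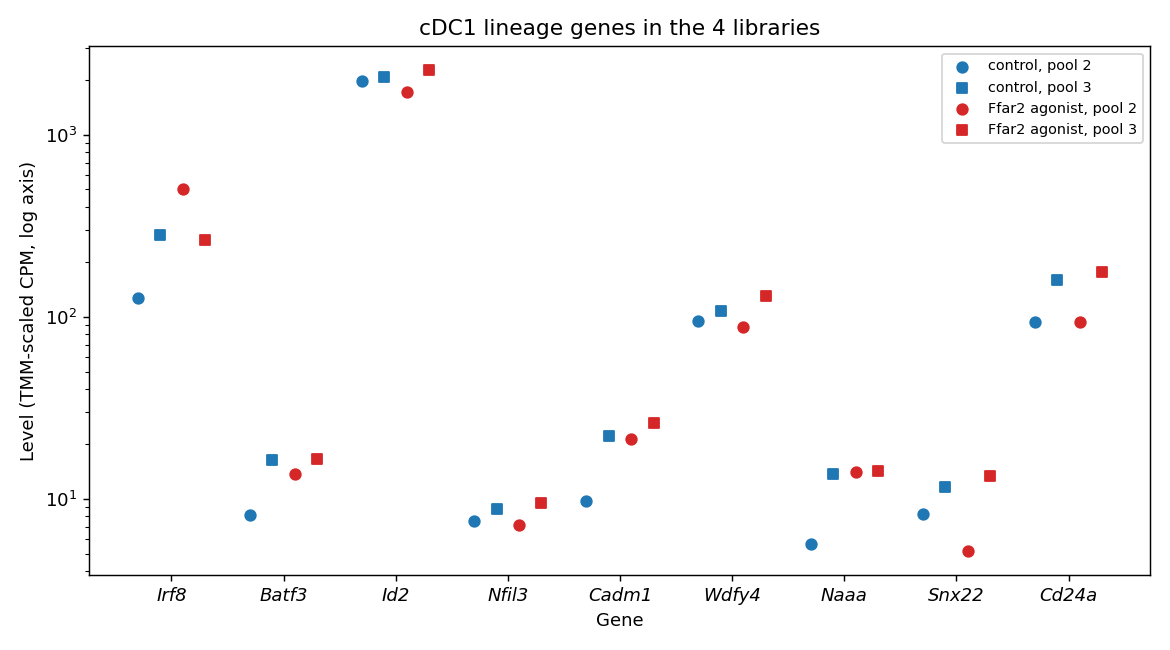
Levels of the 9 cDC1 lineage genes in CPM on a log axis, 1 point per library, blue for control and red for agonist, circles for pool 2 and squares for pool 3. Irf8 is lowest in the pool 2 control at 126 CPM and highest in the pool 2 agonist well at 505 CPM, while both pool 3 squares lie between.

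Irf8, the master regulator of the class (ENSMUSG00000041515.10, chromosome 8, 120736358 to 120756694, GRCm38), had 126 CPM in control 2, 280 in control 3, 505 in agonist 2 and 264 in agonist 3. The 2 pool 3 wells were close together, and the 2 pool 2 wells were the lowest and the highest of the 4, so the groups overlapped. Its mean was 203 ± 109 CPM (SD, n = 2) in control and 385 ± 171 CPM (SD, n = 2) in agonist wells. In edgeR's quasi-likelihood test the estimate of 0.92 on the log2 scale (SE 0.48, 95% interval -0.25 to 2.09) had a p of 0.103 before adjustment over all genes and 0.9999 after it. The log2 difference between the wells was 2.00 in pool 2 and -0.09 in pool 3.

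Batf3, which encodes the bZIP partner of IRF8 (ENSMUSG00000026630.9, chromosome 1, 191097847 to 191108945), was read at 8.20 CPM in control 2, 16.2 in control 3, 13.6 in agonist 2 and 16.6 in agonist 3. Only control 2 stood apart, at the low end, and the agonist values lay on both sides of control 3. The log2 difference was 0.73 in pool 2 and 0.03 in pool 3, and the fitted value of 0.30 (SE 0.43, 95% interval -0.73 to 1.33) did not pass the test (edgeR adjusted p = 0.9999). Without control replicate 2 the fitted value was -0.11.

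Id2, the inhibitor of E proteins (ENSMUSG00000020644.9, chromosome 12, 25093799 to 25097140), had 1978, 2085, 1713 and 2255 CPM in control 2, control 3, agonist 2 and agonist 3. Both ends of that range were agonist wells. Its fitted log2 fold change was -0.03 (SE 0.25, 95% interval -0.65 to 0.58), the narrowest interval of the 9 genes in the fit on group alone. Nfil3, a bZIP repressor gene upstream of Id2 (ENSMUSG00000056749.7, chromosome 13, 52967209 to 52981073), had 7.56, 8.75, 7.21 and 9.54 CPM in the same order. Here the fitted value was 0.04 (SE 0.37, 95% interval -0.87 to 0.95). The 2 genes had the same order of libraries, agonist 2 lowest and agonist 3 highest, and so did Wdfy4 and Snx22.

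Cadm1, which encodes an adhesion molecule that binds CRTAM on activated T cells (ENSMUSG00000032076.19, chromosome 9, 47530173 to 47857637), had 9.74 CPM in control 2, 22.2 in control 3, 21.3 in agonist 2 and 26.2 in agonist 3. Again control 2 was the one low library. The log2 difference was 1.13 in pool 2 and 0.24 in pool 3, higher with the agonist in both, and the fitted value was 0.57 (SE 0.45, 95% interval -0.53 to 1.67, edgeR adjusted p = 0.9999). Cd24a, the gene of a glycosylphosphatidylinositol-anchored glycoprotein (ENSMUSG00000047139.9, chromosome 10, 43578284 to 43584265), was read at 93.6, 159, 93.9 and 176 CPM in control 2, control 3, agonist 2 and agonist 3. Its levels separated by pool and not by treatment. The log2 differences between the wells of a pool were 0.0049 and 0.15, and the fitted value was 0.10 (SE 0.42, 95% interval -0.91 to 1.11). That fit has no term for the pool and counts the difference between pools as spread. With the pool as a replicate block the Cd24a value was 0.08 (SE 0.23, 95% interval -0.45 to 0.61).

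Wdfy4, which encodes a BEACH-domain protein needed for cross-presentation of antigen from cells (ENSMUSG00000051506.17, chromosome 14, 32959547 to 33185508), had 95.3, 107, 87.4 and 129 CPM in control 2, control 3, agonist 2 and agonist 3. The highest library was 1.48 times the lowest. The fit put the agonist effect at 0.10 on the log2 scale (SE 0.30, 95% interval -0.64 to 0.83). Snx22, a sorting nexin gene (ENSMUSG00000039452.6, chromosome 9, 66065176 to 66069719), was read at 8.27, 11.7, 5.19 and 13.3 CPM in the same order of libraries. Here agonist 2 was the low library, and the log2 difference was -0.67 in pool 2 and 0.19 in pool 3, with a fitted value of -0.11 (SE 0.53, 95% interval -1.38 to 1.17).

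Naaa, the gene of a lysosomal enzyme that breaks down palmitoylethanolamide (ENSMUSG00000029413.14, chromosome 5, 92257659 to 92278170), had 5.67 CPM in control 2, 13.7 in control 3, 13.96 in agonist 2 and 14.1 in agonist 3. Both agonist wells were above both controls, but 3 of the 4 libraries were nearly equal and control 2 alone was low. The log2 difference was 1.29 in pool 2 and 0.04 in pool 3, and the fitted value of 0.53 (SE 0.48, 95% interval -0.63 to 1.70) did not pass the test (edgeR adjusted p = 0.9999). Naaa was the one gene of the 9 whose agonist wells both exceeded both controls, while 11.4% of all tested genes had that pattern.

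All 9 genes passed the filter on low counts and were tested, and in the agonist comparison 0 of 9 were called at an adjusted p under 0.05 in edgeR, as were 0% of the 18297 tested genes. With no adjustment, 0 of 9 were under 0.05 as well, against 1.58% of all tested genes, and DESeq2 called 0 of 9. The fitted value was above 0 for 7 of 9 genes and for 44.6% of all tested genes. The median log2 fold change of the 9 was 0.10, beside -0.05 over all tested genes. In both pools the agonist well was higher for 4 of 9, namely Batf3, Cadm1, Naaa and Cd24a, against 21.0% of all tested genes. Some of these differences were close to 0, namely 0.03 for Batf3 and 0.04 for Naaa in pool 3, and 0.0049 for Cd24a in pool 2. The median difference of the 9 genes was 0.0049 in pool 2 and 0.12 in pool 3. The fits so far had group as their only term, so the difference between pools counted as spread. With the pool added to the edgeR fit as a replicate block, 0 of 9 were called as well. None of the 9 was under 0.05 without adjustment, against 645 of 18297 tested genes. The log2 fold changes were 0.96 (SE 0.44, unadjusted p = 0.0600) for Irf8, 0.68 (SE 0.33, unadjusted p = 0.0717) for Cadm1 and 0.66 (SE 0.39, unadjusted p = 0.124) for Naaa.

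**Figure D2:**
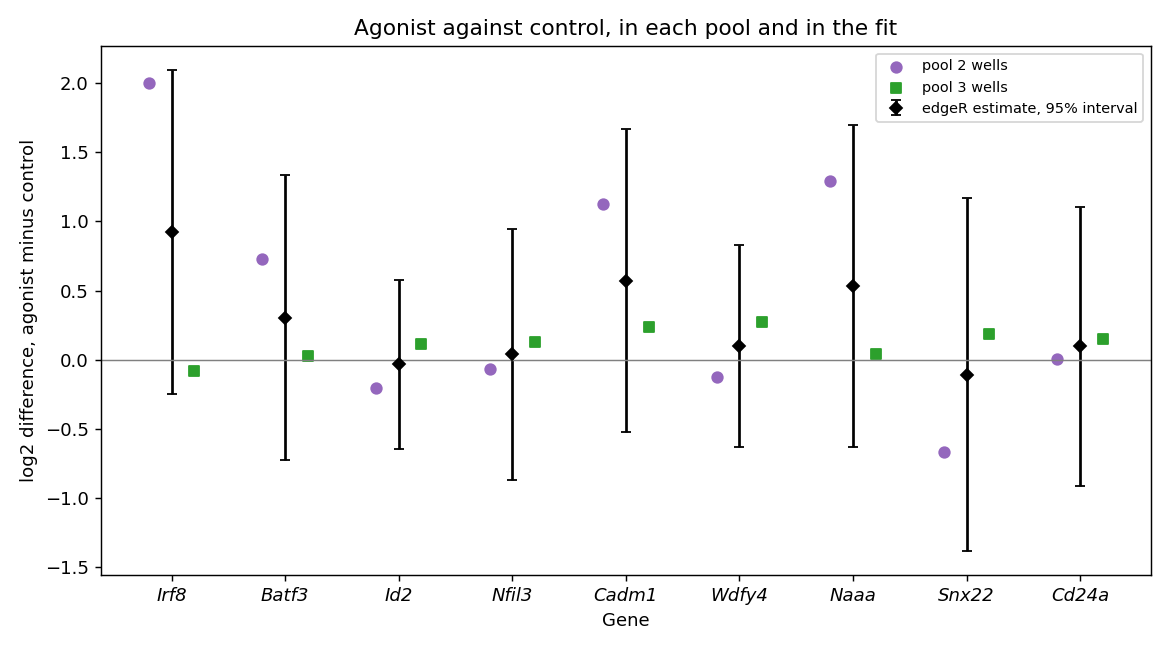
Log2 difference of agonist minus control for the 9 genes; circles are the wells of pool 2, squares those of pool 3, and black diamonds the edgeR estimate with its 95% interval. Group is the only term of that fit. Every interval includes 0, and for Irf8, Naaa, Cadm1 and Batf3 the pool 2 circle is far above the pool 3 square.

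The higher values of Irf8, Naaa and Batf3 came from 1 pair of wells, that of pool 2, in which very many genes differed. Cadm1 was higher with the agonist by 1.13 in that pair and by 0.24 in the pool 3 pair. An average log2 CPM of at least 4 was reached by 6639 genes, Irf8 and Cadm1 among them, while Batf3 and Naaa lay below that level. Over the 6639 genes, the log2 differences had an SD of 0.576 in pool 2 and 0.253 in pool 3. In pool 2, 530 of these genes were higher with the agonist by more than 1 and 21 were lower by more than 1, while in pool 3 there were 3 and 34. Control 2 was the lowest and agonist 2 the highest of the 4 libraries in 804 of them, as for Irf8. A rise in pool 2 of at least the size seen for Irf8 occurred in 42 other genes, 0.633% of those compared. Whether the agonist difference itself differed between the pools could not be tested, since each pool had 1 well per condition. In simulated counts of this design with 17346 genes, true changes of 2-fold were called for 0 of 65 genes, and true changes of 4-fold for 34 of 66. The changed genes were drawn from low to high counts, and a pool effect was added to the spread of the fit on group alone. These shares are therefore no recovery rate for a gene with as many reads as Irf8.

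**Figure D3:**
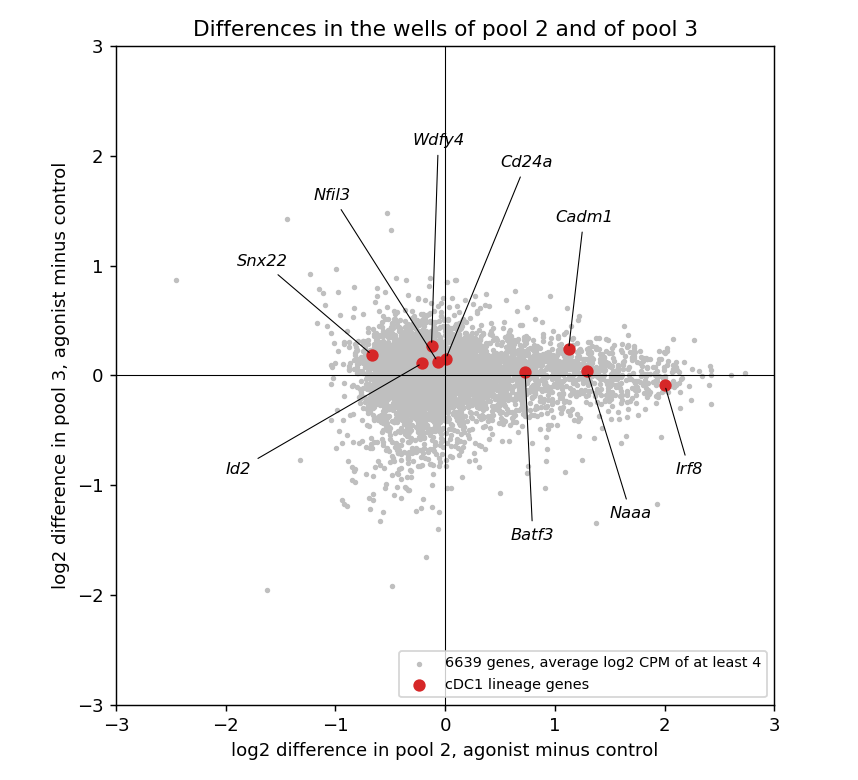
Log2 difference of agonist minus control in pool 2 (horizontal) against pool 3 (vertical) for 6639 genes with an average log2 CPM of at least 4 (grey) and the 9 cDC1 lineage genes (red); 3 grey genes lie outside the axes. The grey points reach past 2 to the right and stay close to 0 in height there, and Irf8, Naaa, Cadm1 and Batf3 lie in that arm.

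Across the 4 libraries, 3 genes varied most, and the genes most like them were sought among 6399 named genes by the root mean square difference of centred log2 CPM. For Irf8, whose log2 range was 2.00, these were Atp5d (0.0230), a subunit of ATP synthase, and Chmp7 (0.0274) and Vps4a (0.0286) of the ESCRT membrane machinery. Atp5d went from 21.8 CPM in control 2 to 86.6 CPM in agonist 2, with 46.7 and 45.9 CPM in the pool 3 wells. For Cadm1, with a range of 1.42, they were Slc25a39 (0.0367), Zfp709 (0.0424) and Socs2 (0.0528), and for Snx22, with a range of 1.35, Cx3cl1 (0.0517), Mab21l3 (0.0568) and Slc2a6 (0.0618). With 4 libraries such likeness is a description only.

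Between the pools, most of the 9 genes had higher levels in pool 3, but none passed the test. With group in the model, the log2 difference of pool 3 minus pool 2 was above 0 for 9 of 9 genes, beside 49.6% of all tested genes, with a median of 0.63 against -0.01 over all. For Irf8, at 0.10, the pool means run the other way, 316 CPM in pool 2 and 272 CPM in pool 3, and without group in the model its difference was -0.22. Both pool 3 libraries exceeded both pool 2 libraries for 7 of 9 genes, the exceptions being Irf8 and Naaa, against 24.0% of all tested genes. In edgeR's test 0 of 9 were called, while 0.394% of all tested genes were called. At an unadjusted p under 0.05, 2 of 9 were higher in pool 3, against 6.15% of all genes: Cd24a with 0.84 (SE 0.24, unadjusted p = 0.00629, edgeR adjusted p = 0.152) and Snx22 with 0.92 (SE 0.37, unadjusted p = 0.0330, edgeR adjusted p = 0.302).

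The other differences between the pools were 0.74 (SE 0.33) for Cadm1, 0.64 (SE 0.39) for Naaa, 0.63 (SE 0.33) for Batf3, 0.37 (SE 0.25) for Wdfy4, 0.31 (SE 0.34) for Nfil3, 0.24 (SE 0.24) for Id2 and 0.10 (SE 0.44) for Irf8. DESeq2 called 1 of the 9, Cd24a (0.85, adjusted p = 0.0357), and 706 of all 18297 genes. Fits that left out a library also dropped group from the model, and without a pool 2 well that pool is 1 library, assumed to vary like the pair of pool 3 wells. Such a fit called 5 of the 9 and 1575 of 19727 genes without agonist replicate 2, among them Irf8 as higher in pool 3 (1.12, edgeR adjusted p = 0.0177). Without control replicate 2 it called 2 of the 9 and 841 of 19811 genes, among them Irf8 as lower (-0.89, edgeR adjusted p = 0.0294), the 2 pool 2 wells being the lowest and highest libraries for Irf8. Each arm is 1 pool, so these p-values cover the spread between wells. Xist had 17776 and 21194 reads in the pool 2 libraries and 0 in those of pool 3, and Ddx3y had 18752 and 21461 in pool 3 and 0 in pool 2, so pool and sex of the mice cannot be told apart.

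**Figure D4:**
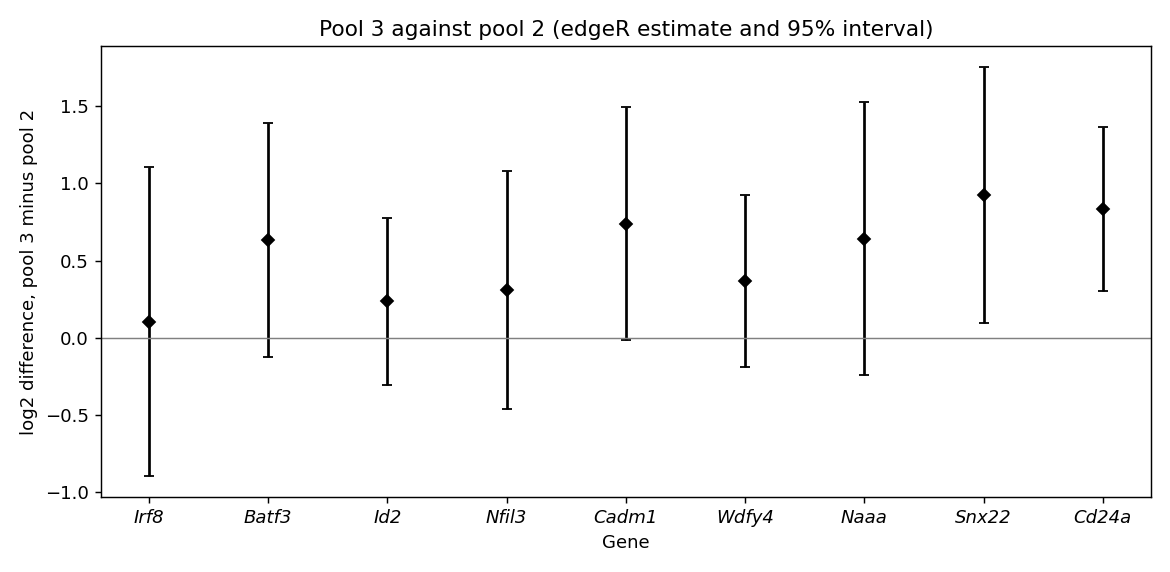
Log2 difference of pool 3 minus pool 2 for the 9 genes, with group in the model; diamonds are edgeR estimates and bars their 95% intervals. All 9 estimates are above 0, and the intervals of Snx22 and Cd24a exclude 0 before adjustment over all genes.

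Markers of other cells also differed between the pools. Summed T cell markers were 603 and 426 CPM in the control and agonist wells of pool 2 and 312 and 175 CPM in those of pool 3. B cell markers were at 804 and 731 against 437 and 366 CPM, plasmacytoid dendritic cell markers at 991 and 750 against 625 and 428 CPM, and monocyte and macrophage markers at 5596 and 5021 against 3070 and 3405 CPM. All 4 sums were lower in pool 3, whereas the cDC1 markers summed to 259 and 213 CPM in pool 2 and 279 and 350 CPM in pool 3, with 4 of the 8 above 0 and 4 below in the pool estimate. The mature migratory dendritic cell markers were at 14778 and 11865 CPM in pool 2 and at 17109 and 19066 CPM in pool 3. T cell markers were also lower with the agonist in each pool, 8 of 8 in both. So were 7 of 9 B cell markers and 5 of 8 plasmacytoid dendritic cell markers, and 0 of either list were higher in both pools. The part of cell composition in the values of the 9 genes was not tested.

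**Figure D5:**
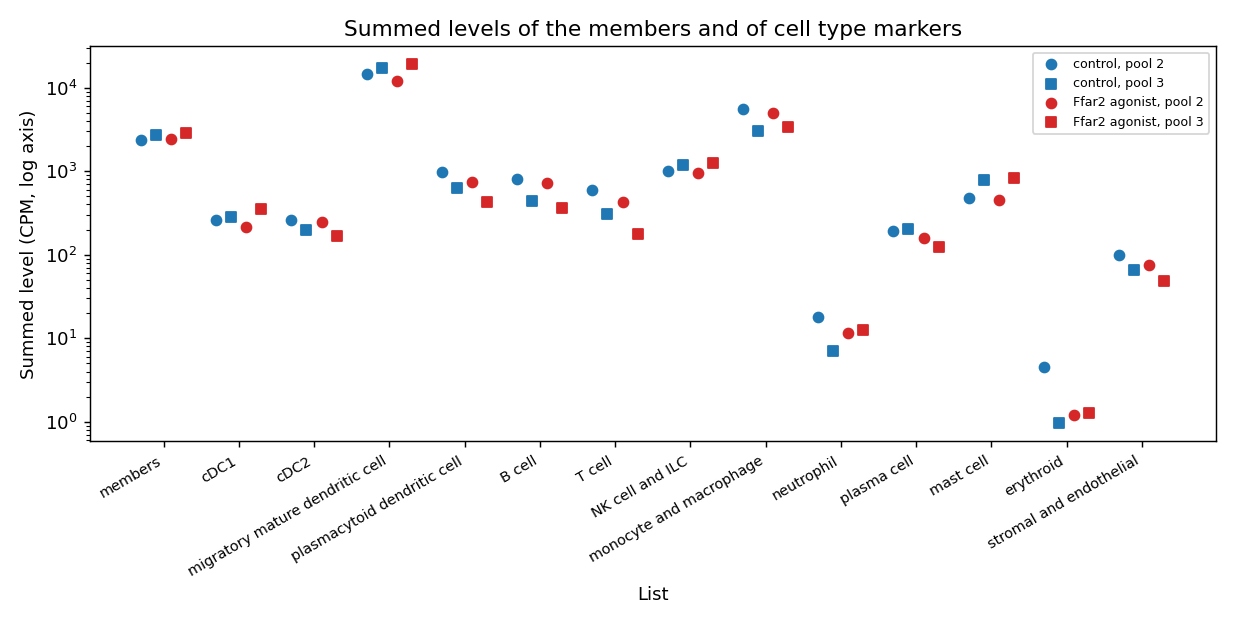
Summed CPM on a log axis for the 9 cDC1 lineage genes (members) and for marker lists of 13 cell types, 1 point per library, blue for control, red for agonist, circles for pool 2 and squares for pool 3. T cell, B cell, plasmacytoid and monocyte sums are lower in both squares than in both circles, and the members and cDC1 markers are higher. Most of the members' sum is Id2 alone, 1978 of 2333 CPM in control 2 and 2255 of 2904 CPM in agonist 3.

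Of 21 further genes of the cDC1 programme, all were tested and 0 were called in either comparison. The 21 include the 8 markers of the cDC1 list, so the 2 lists are not separate. With the agonist, 12 had estimates above 0 and 9 below, with a median of 0.04, beside 44.6% of all tested genes above 0. In edgeR 0 were under 0.05 before adjustment, against 1.58% of all tested genes. Itgae, the CD103 integrin chain of gut-derived dendritic cells, had 28.9 and 19.3 CPM in the controls and 16.0 and 9.98 CPM in the agonist wells, a log2 fold change of -0.89 (SE 0.40, unadjusted p = 0.0637, edgeR adjusted p = 0.9999), and both agonist wells were below both controls. Itgae is also read in CD8 T cells, whose markers were lower in those wells, and this part was not tested. The fitted value of Xcr1 was 0.53 (SE 0.59), and its wells differed by -0.15 in pool 2 and by 0.81 in pool 3. Between the pools, 15 of the 21 had estimates above 0, with a median of 0.48, beside 49.6% of all tested genes above 0. At an unadjusted p under 0.05 in edgeR, 8 were higher and 1 lower, against 1126 higher and 1410 lower of all 18297 genes. Gcsam had the smallest p, with 1.88 (SE 0.33, edgeR adjusted p = 0.0589), Tlr11, a sensor of microbial profilin, had 1.39 (SE 0.34), and Xcr1 had 1.27 (SE 0.31). Cd8a, which T cells share, had -1.24 (SE 0.25).

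Among the BATF relatives and AP-1 factors, 8 of 9 genes were tested and 0 were called in either comparison. Their median was 0.32 with the agonist and -1.21 for pool 3 against pool 2. Junb, a partner of BATF3, had 34.8, 71.3, 231 and 72.6 CPM in control 2, control 3, agonist 2 and agonist 3, so agonist 2 alone was high. The fitted value was 1.52 (SE 0.61, edgeR adjusted p = 0.9999), from a difference of 2.73 in pool 2 and one of 0.03 in pool 3. Batf, which can stand in for Batf3, had 30.9, 12.3, 22.8 and 15.1 CPM, highest in the pool 2 wells. This direction was not particular to Batf, as 7 of the 8 tested genes of the list had pool estimates below 0.

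The E proteins and the other Id genes had 5 of 6 genes tested and 0 called in either comparison, and Id4 had no reads. Tcf4, which drives plasmacytoid dendritic cells and is restrained by ID2, was at 165, 107, 141 and 90.3 CPM and lower in both pool 3 wells (log2 difference -0.63, SE 0.23, edgeR adjusted p = 0.266). Tcf12 was at 49.3, 19.4, 48.0 and 17.6 CPM, with a pool difference of -1.40 (SE 0.27, edgeR adjusted p = 0.0736). Id3, a relative of Id2, lay between 41.7 and 55.5 CPM. In these 2 genes the wells of a pool were alike. The third E protein gene, Tcf3, differed by 1.01 between the wells of pool 2 and by -0.39 between those of pool 3.

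Regulators of dendritic cell fate had 11 of 12 genes tested, 0 called, and medians of -0.07 in both comparisons. Flt3, the receptor for the growth factor of dendritic cells, had 147 CPM in control 2 and 279, 275 and 310 CPM in control 3, agonist 2 and agonist 3, the pattern of Batf3, Cadm1 and Naaa with control 2 as the low library. The 8 other interferon regulatory factor genes were all tested and 0 were called, with a median of -0.14 with the agonist. Irf4, the counterpart of Irf8 in cDC2, had -0.30 (SE 0.30).

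For the enzymes around Naaa, 5 of 6 genes of N-acylethanolamine metabolism were tested and 0 were called. Faah, a second hydrolase for these lipids, had 7.03, 3.64, 15.2 and 3.84 CPM in control 2, control 3, agonist 2 and agonist 3, highest in agonist 2. Among partners of CADM1 and CD24, 4 of 6 were tested and 0 were called. Siglecg, an inhibitory receptor that binds CD24, had 414, 245, 341 and 256 CPM, highest in the pool 2 wells, where Cd24a was lowest. Crtam, the partner of CADM1, had 1.26 CPM in control 2 and 2.85 to 3.10 CPM in the other wells.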

How the data were processed

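RNA of 4 libraries (SMART-seq v4 kit, per the labels' protocols) was analysed from the read counts per gene that the authors deposited, raw and not normalized. STAR 2.7, HTSeq 0.11.1 and the build GRCm38 (mm10) come from the submitters' processing notes. The strand setting is not given in the sources used here. Lines naming no gene (no feature 15.96% to 19.99% of reads, ambiguous 5.771% to 6.501%, not unique 6.541% to 6.985%) were left out. Positions and exon lengths came from GENCODE M21, which matched all 55450 gene rows, and promoter sequences from RefSeq (GRCm38.p6).

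Genes passing edgeR's expression filter (minimum count 10) were scaled by TMM (factors 0.947 to 1.05) and tested with edgeR 4.0.16 by the two-sided quasi-likelihood test, adjusted over all genes by Benjamini-Hochberg, threshold 0.05 (R 4.3.3, limma 3.58.1, DESeq2 1.42.0 as an alternative). SEs were derived from the estimate and its F statistic. Differences within a pool are of log2 CPM with a prior count of 2. The fits were tested on simulated counts. The nodes behind a pool were combined, so p-values measure the spread between pools and wells.

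Per the labels' protocols, each pool's cells were split over both wells, so equal numbers pair the libraries (their deviations from the group means correlated at r = 0.288 over 18297 genes). The members and lists were chosen with earlier results of these data known. Genes named outside the members were up to 4 per pathway list with the smallest unadjusted p in either comparison and the 3 genes most alike to the 3 members of widest range. Ppib, Xist, Ddx3y, Batf, Clec9a, Ppt1, Ccr7 and Id3, and other list genes named for their levels, were chosen after values were seen. Figures used matplotlib 3.10.9, with Python 3.11.15, NumPy 2.4.6 and pandas 2.3.3.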

Additional observations from a re-analysis of the deposited data

How the results depend on the processing

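In the agonist comparison 0 of the 9 genes were called under any of the 11 alternatives. The count over all genes was 0 in edgeR and 1 with the replicate block (Igha), 7 in DESeq2, 6 in DESeq2 with the replicate block, 9 with no filter, and 0 to 2 when a library was left out. The pairing by pool changed no call of the 9 genes. At an unadjusted p under 0.05, DESeq2 with the replicate block had 1 of the 9, against 774 of 18297 genes. In edgeR with no filter it was 1 of the 9, against 925 of 28600 genes. Every other setting that kept all libraries had 0 of the 9. Of 99 refitted values of single genes, 88 kept their direction and 11 turned: Id2 was 0.017 with the stricter filter, and when a library was left out the ranges were -0.11 to 0.95 for Batf3, -0.25 to 0.18 for Id2, -0.18 to 0.26 for Nfil3, -0.22 to 0.39 for Wdfy4, -0.95 to 0.45 for Snx22 and -0.43 to 0.59 for Cd24a. Irf8, Cadm1 and Naaa kept their direction but ranged from 0.41 to 1.69, from 0.10 to 1.36 and from 0.03 to 1.38.

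For pool 3 against pool 2, the count over all genes was 72, 5 with the pool as the only term or with total counts only (the sex-linked genes Kdm5d, Uty, Ddx3y, Eif2s3y and Xist in both), 706 in DESeq2, 600 with no filter, 8 with the stricter filter and 1 to 1575 when a library was left out. Of the 9 genes, DESeq2 called 1, and 0 to 5 were called when a library was left out. Irf8 was -0.22 with the pool as the only term and ranged from -0.89 to 1.12 when a library was left out. For Irf8 the pool 2 wells were the lowest and the highest libraries, at 126 CPM in control 2 and 505 CPM in agonist 2. Why these wells differed was not tested. Fits without a library had the pool as their only term, since pool and group together leave no residual degrees of freedom. A prior count of 0.5 moved no within-pool difference beyond the spread between the pools.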
